A study of Mus musculus with 8 samples.

Results

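Transcripts of the IRE1 and ATF6 arms of the unfolded protein response, together with the folding and degradation machinery of the endoplasmic reticulum (ER) that they serve, were examined in islet RNA from NOD mice, which develop autoimmune diabetes spontaneously. The genes were taken from a named list of 40 symbols covering stress sensors, ER chaperones, disulfide enzymes and ER-associated degradation. The rule names symbols and uses no threshold on measured values, but the list was drawn up with earlier results of these data known. All 40 were among the 13725 genes of the deposited table and among the 12231 genes tested. Islets of 10-week-old female NOD mice given PAHSA (the sample labels spell it PASHA), a family of lipids in which palmitic acid is esterified to hydroxy stearic acid, were compared with islets of female NOD mice of the same age given vehicle. Each group had 4 libraries, numbered 1, 2, 3 and 4 for PAHSA and 1, 3, 4 and 5 for vehicle, of whole islets and not of purified beta cells. The labels state no dose, route or duration of treatment. The protocol speaks of islets pooled from 2 mice, whereas the design text speaks of 4 mice per group. The p-values therefore rest on the spread between libraries, whichever unit each library stands for.

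The ER lumen folds secreted and membrane proteins, and beta cells, which make very large amounts of proinsulin, depend heavily on it. When unfolded proteins accumulate, the membrane sensor IRE1 (encoded by Ern1) excises an intron from Xbp1 mRNA, and the spliced message encodes an active transcription factor. ATF6 instead travels to the Golgi, where the proteases encoded by Mbtps1 and Mbtps2 release its transcription factor domain. Both factors raise transcription of chaperones, disulfide isomerases and components of ER-associated degradation, the route by which misfolded proteins are moved back to the cytosol and destroyed. Gene-level values cannot separate spliced from unspliced Xbp1, and protein processing of ATF6 is not visible in RNA.

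In islets of PAHSA-treated mice, most of these transcripts lay slightly below the vehicle level, and no difference passed the test. In bulk RNA, fewer cells of a type and less RNA per cell cannot be told apart. Of the 40 genes, 33 had a negative difference (PAHSA minus vehicle, log2 CPM) and 7 a positive one, beside 50.9% negative among all genes tested. The median difference was -0.16, a ratio of 0.896, beside a median of -0.006 over all genes. The limma test, adjusted over all 12231 genes, called 0 of the 40 genes and 0% of all genes, and the smallest adjusted p among the 40 was 0.671. At an unadjusted p under 0.05, 4 of the 40 were lower (Ern1, P4hb, Pdia4 and Hyou1) and 0 were higher, beside 4.29% lower and 3.02% higher of all genes (525 and 369 genes). The PAHSA and vehicle libraries did not overlap for 2 genes, Ern1 and P4hb, both lower in PAHSA, beside 1.95% of all genes lower and 2.06% higher. The number of negative differences was 28 under quantile normalization and 27 with the mean of stellate, fibroblast and pericyte markers as a covariate, and the median difference was then -0.09 and -0.05. Depth does not limit most of these values, since only Mbtps2 had under 100 estimated counts in any library.

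**Figure D1:**
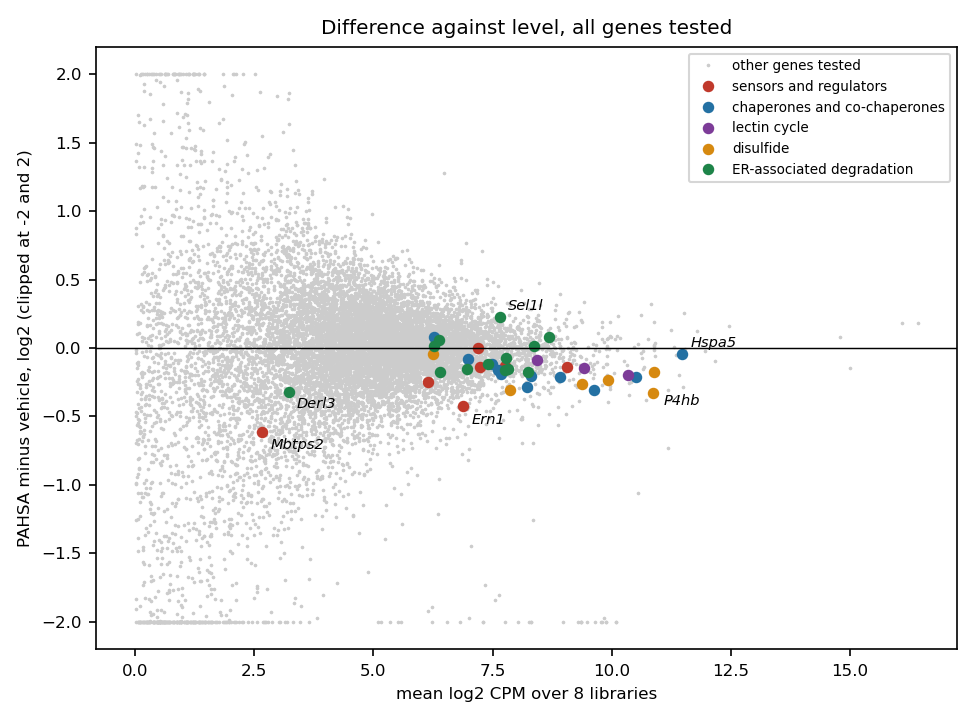
Each point is a gene, with its mean log2 CPM over 8 libraries on the x axis and its difference, PAHSA minus vehicle in log2 CPM and clipped at -2 and 2, on the y axis. Coloured points are the 40 ER genes by role and grey points all other genes tested; 33 of the 40 lie below the line at 0 (28 under quantile normalization), at a median of -0.16.

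Ern1, the gene of the IRE1 sensor itself, had the smallest p of the 40. Ern1 (ENSMUSG00000020715, chromosome 11 from 106394650 to 106487852, - strand in GRCm38, protein-coding) was at 6.69, 6.53, 6.69 and 6.78 log2 CPM across PAHSA replicates 1 to 4, against 7.16, 7.17, 6.98 and 7.06 across vehicle replicates 1, 3, 4 and 5. Every PAHSA library lay below every vehicle library. The difference was -0.42 (SE 0.10), a ratio of 0.747, with a 95% confidence interval from -0.65 to -0.19 (limma unadjusted p = 0.00196, adjusted p = 0.671). Means were 6.67 ± 0.10 log2 CPM in PAHSA and 7.09 ± 0.09 in vehicle libraries (SD, n = 4 each). Over 18 alternative fits the difference ranged from -0.52 to -0.35, and none of them gave an adjusted p under 0.361 for any of the 40 genes. Set against the median of the 40 genes in the same library, Ern1 was at -0.91, -1.28, -1.08 and -1.06 log2 in PAHSA replicates 1 to 4 and at -0.67, -0.79, -0.84 and -0.82 log2 in vehicle replicates 1, 3, 4 and 5. The groups did not overlap on that relative scale either, and the Ern1 difference was larger than the median of the list, -0.16. Ern1 was singled out by its p and the same 8 values enter here, so this adds no separate support. Separation on this scale was not counted over all genes. Between 3296 and 6031 estimated counts stood behind each of these 8 values.

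The substrate of IRE1 and the second sensor come next. Xbp1 (ENSMUSG00000020484, chromosome 11 from 5520659 to 5525893, + strand), the mRNA that IRE1 splices, was at 8.84, 8.996, 9.001 and 9.12 log2 CPM in the PAHSA libraries, against 9.17, 9.24, 9.001 and 9.11 in the vehicle libraries. The difference was -0.14 (SE 0.09) and the groups overlapped, with PAHSA replicates 3 and 4 inside the vehicle range and PAHSA replicate 1 lowest; the difference ran from -0.23 to -0.02 over the 18 alternatives, nearest 0 with the stellate covariate. Atf6 (ENSMUSG00000026663, chromosome 1 from 170704674 to 170867771, - strand), the founding member of its sensor family, was at 7.11, 7.18, 7.35 and 7.19 log2 CPM in the PAHSA libraries, against 7.40, 7.20, 7.02 and 7.18 in the vehicle libraries. No direction can be given for Atf6: the difference was 0.004 (SE 0.11) with an interval from -0.24 to 0.25, and its sign turned in 6 of 18 alternatives.

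Atf6b, a close relative of Atf6 with weaker activity, was at 6.05, 6.04, 5.77 and 6.25 log2 CPM in the PAHSA libraries, against 6.22, 6.27, 6.34 and 6.26 in the vehicle libraries. PAHSA replicates 1, 2 and 3 lay below all vehicle libraries and PAHSA replicate 4 within them, and the difference was -0.24 (SE 0.13), or -0.16 without PAHSA replicate 3 and -0.16 with the stellate covariate. Mbtps1, the site-1 protease that cleaves ATF6 first, ranged over 6.88 to 7.47 log2 CPM in PAHSA libraries and 7.18 to 7.45 in vehicle libraries and differed by -0.14 (SE 0.14). Mbtps2, the site-2 protease that cleaves it next, was the least abundant of the 40 genes per unit length. It was at 3.34, 3.17, 3.23 and -0.31 log2 CPM in the PAHSA libraries, against 2.59, 3.23, 3.06 and 2.99 in the vehicle libraries. The difference was -0.61 (SE 0.74), and 0.28 without PAHSA replicate 4, which had 32 estimated counts; an exon of Mbtps2 also overlaps Yy2 on the same strand, and reads there are shared by a model. Wfs1, the Wolfram syndrome gene, whose product is an ER membrane protein that restrains ATF6 signalling, ranged over 7.54 to 7.90 log2 CPM in PAHSA libraries and 7.62 to 7.97 in vehicle libraries and differed by -0.13 (SE 0.11).

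**Figure D2:**
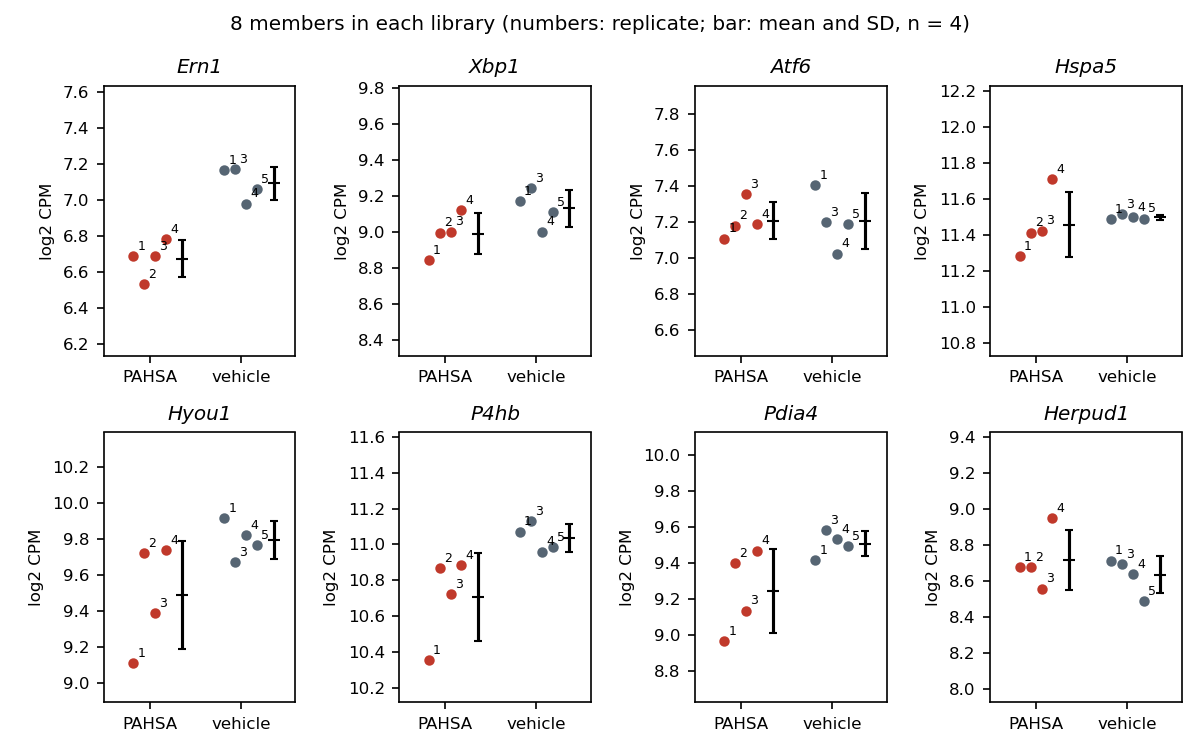
Log2 CPM (y axis, each panel spanning 1.5 log2 units) of 8 genes in the 4 PAHSA and the 4 vehicle libraries; numbers are replicates, and the bar gives mean and SD (n = 4). Ern1 and P4hb do not overlap between groups, and PAHSA replicate 1 is the lowest library for Xbp1, Hspa5, Hyou1, P4hb and Pdia4.

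Chaperones of the ER lumen carried small differences. Of 11 chaperones and co-chaperones, 10 had a negative difference, at a median of -0.19, and 1 (Hyou1) had an unadjusted p under 0.05. Hspa5 (ENSMUSG00000026864, chromosome 2 from 34771970 to 34777547, + strand) encodes BiP, the ER Hsp70 that holds the sensors inactive and is the classical reporter of ER stress. Hspa5 was at 11.28, 11.41, 11.42 and 11.71 log2 CPM in the PAHSA libraries, against 11.49, 11.52, 11.50 and 11.49 in the vehicle libraries. The 4 vehicle libraries were nearly identical, while the PAHSA libraries lay on both sides of them, replicates 1, 2 and 3 below and replicate 4 above. The difference was -0.04 (SE 0.09), with an interval from -0.25 to 0.17 and the opposite sign under quantile normalization (0.21), without PAHSA replicate 1 (0.02) and with the stellate covariate (0.07).

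Hsp90b1, the ER Hsp90 known as GRP94, was at 10.26, 10.33, 10.29 and 10.72 log2 CPM in the PAHSA libraries, against 10.53, 10.75, 10.53 and 10.63 in the vehicle libraries. Its pattern was the same as that of Hspa5 in PAHSA replicates 1, 2 and 3, which lay below all vehicle libraries, while PAHSA replicate 4 lay within them. The difference was -0.21 (SE 0.11), -0.32 without PAHSA replicate 4, -0.38 with the mean of acinar (digestive enzyme) markers as a covariate, -0.08 with the stellate covariate and 0.09 under quantile normalization. Hyou1 (ENSMUSG00000032115, chromosome 9 from 44379490 to 44392369, + strand), a large Hsp70 relative that exchanges nucleotide on BiP, was at 9.11, 9.72, 9.39 and 9.74 log2 CPM in the PAHSA libraries, against 9.92, 9.67, 9.82 and 9.77 in the vehicle libraries. PAHSA replicates 1 and 3 were low and the others within the vehicle range, and the difference was -0.30 (SE 0.14) (limma unadjusted p = 0.0477, adjusted p = 0.678). It was -0.18 without PAHSA replicate 1, -0.13 when libraries were quantile normalized and -0.09 with the stellate covariate.

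J proteins drive the ATPase of BiP, and 4 of them are on the list. Dnajb9 (ERdj4), which also holds IRE1 in its inactive state, was at 7.70, 7.599, 7.31 and 7.73 log2 CPM in the PAHSA libraries, against 7.63, 7.99, 7.86 and 7.64 in the vehicle libraries. Only PAHSA replicates 2 and 3 lay below the vehicle libraries, and the difference was -0.19 (SE 0.12), ranging from -0.29 to -0.10 over the 18 alternatives, nearest 0 without PAHSA replicate 3. Dnajc3 (p58IPK), an ER co-chaperone, differed by -0.21 (SE 0.10), Dnajb11 by -0.12 (SE 0.12) and Dnajc10, a J protein with disulfide reductase domains, by -0.16 (SE 0.17). Hspa13, an Hsp70-like protein of microsomes, differed by -0.08 (SE 0.17), and Sil1, a second nucleotide exchange factor of BiP, by 0.08 (SE 0.15), the only positive difference among the chaperones.

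Sdf2l1, a BiP-associated ER protein strongly induced by stress, was at 7.79, 8.28, 7.89 and 8.35 log2 CPM in the PAHSA libraries, against 8.30, 8.48, 8.54 and 8.12 in the vehicle libraries. PAHSA replicates 1 and 3 lay below every vehicle library and the others within their range, and the difference was -0.28 (SE 0.15), -0.19 without PAHSA replicate 1 and -0.06 with the stellate covariate, in a range from -0.43 to -0.06 over the 18 alternatives. Manf, a secreted ER stress protein needed for beta cell survival in mice, was at 8.001, 8.31, 8.22 and 8.29 log2 CPM in the PAHSA libraries, against 8.26, 8.36, 8.65 and 8.37 in the vehicle libraries. Only PAHSA replicates 1 and 3 lay below the vehicle libraries, and the difference was -0.20 (SE 0.11), ranging from -0.26 to -0.12 over the 18 alternatives, nearest 0 without vehicle replicate 4.

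The promoters of these genes are shown because ATF6 and XBP1 act through known elements there. RefSeq windows (GRCm38.p6) from 250 bases before to 50 bases after the start were found for 34 of the 40 genes, and 3 elements were searched on both strands: the ER stress element ERSE, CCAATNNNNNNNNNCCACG; the ERSE-II, ATTGGNCCACG; and the unfolded protein response element UPRE, TGACGTGG. The 34 genes had 35 windows. ERSE was present for 9 of the 34 genes, and 0.119% of 32851 windows of all genes held it. ERSE-II was present for 2 of the 34 genes and in 0.0365% of all windows, and UPRE for 1 (Vcp) and in 0.676%. None of the 34 genes held more than one of the 3 kinds of element, all of which contain CCACG on one strand. The sites of 9 of these genes, among them the 4 degradation genes with an element (Syvn1, Derl3, Herpud1 and Vcp), are printed in the direction of the gene with 8 flanking bases on each side, capitals marking the element.
Hspa5 (ERSE, chr2:34772017-34772051, + strand): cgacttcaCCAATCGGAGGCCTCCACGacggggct
Hsp90b1 (ERSE, chr10:86705630-86705664, - strand): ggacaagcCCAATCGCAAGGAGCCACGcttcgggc
Hsp90b1 (ERSE, chr10:86705525-86705559, - strand): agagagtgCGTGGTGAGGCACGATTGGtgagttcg
Calr (ERSE, chr8:84847067-84847101, - strand): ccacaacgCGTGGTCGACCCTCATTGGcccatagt
Creld2 (ERSE, chr15:88819512-88819546, + strand): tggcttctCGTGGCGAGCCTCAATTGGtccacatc
Syvn1 (ERSE, chr19:6046524-6046558, + strand): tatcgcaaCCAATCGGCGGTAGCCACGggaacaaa
Derl3 (ERSE, chr10:75893234-75893268, + strand): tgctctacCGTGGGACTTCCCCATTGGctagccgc
Herpud1 (ERSE-II, chr8:94386369-94386395, + strand): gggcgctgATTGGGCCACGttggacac
Dnajb11 (ERSE-II, chr16:22857844-22857870, + strand): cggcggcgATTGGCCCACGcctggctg
Vcp (UPRE, chr4:43000606-43000629, - strand): cggccaatTGACGTGGcgttacta
In Hsp90b1 the second site, and in Calr, Creld2 and Derl3 the site shown, read on the strand opposite to the gene. The 11 genes with ERSE or ERSE-II (also Dnajc3, Canx and Pdia6) had differences from -0.32 to 0.08 with a median of -0.20, 10 of them negative. The 23 searched genes without either had differences from -0.61 to 0.23 with a median of -0.16, 20 of them negative. A match is a description of the letters and not of binding, and these sets were not tested against each other. The 40 genes were listed as parts of the response that these elements serve, so no enrichment is read from the shares.

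For the sensor and the main chaperone, the 250 bases before the RefSeq start are given in full. The gene positions given above, from GENCODE, begin further upstream. Part of both stretches, including the Hspa5 ERSE, therefore lies inside those genes. Capitals mark the ERSE in Hspa5, which lies 65 to 47 bases before the RefSeq start. In Ern1 they mark the 5 letters CCACG, which 32.8% of all windows hold on either strand. The Ern1 window held none of the 3 elements searched.
Hspa5 (chr2:34771840-34772089, + strand): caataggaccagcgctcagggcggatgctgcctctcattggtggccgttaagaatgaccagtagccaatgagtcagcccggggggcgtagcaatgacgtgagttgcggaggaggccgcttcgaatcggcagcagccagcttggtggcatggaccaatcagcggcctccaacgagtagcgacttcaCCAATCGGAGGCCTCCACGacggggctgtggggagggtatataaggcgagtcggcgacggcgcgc
Ern1 (chr11:106487797-106488046, - strand): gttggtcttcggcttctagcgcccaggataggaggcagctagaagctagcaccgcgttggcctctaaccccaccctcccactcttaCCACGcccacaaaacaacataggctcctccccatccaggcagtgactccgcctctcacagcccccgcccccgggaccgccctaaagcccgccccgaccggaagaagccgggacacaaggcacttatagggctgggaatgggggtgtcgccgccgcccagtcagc
Hspa5 differed by -0.04 and Ern1 by -0.42. A pair of genes named with their values known cannot relate an element to a difference, and no such relation was tested.

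Lectin chaperones, which hold glycoproteins until they are folded, had 3 negative differences of 3. Calr (ENSMUSG00000003814, chromosome 8 from 84841850 to 84846934, - strand), the soluble lectin calreticulin, was at 10.06, 10.40, 10.13 and 10.38 log2 CPM in the PAHSA libraries, against 10.39, 10.43, 10.51 and 10.43 in the vehicle libraries, a difference of -0.20 (SE 0.09). PAHSA replicates 1, 3 and 4 lay below the vehicle libraries and PAHSA replicate 2 within them. Canx, its membrane-bound relative calnexin, differed by -0.14 (SE 0.08), and Uggt1, the folding sensor that returns misfolded glycoproteins to the cycle, by -0.09 (SE 0.14). The signs of Calr and Canx turned under quantile normalization (0.08 and 0.05) and that of Uggt1 with the stellate covariate (0.10).

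Disulfide enzymes had a median difference of -0.25, with 6 of 6 differences negative (5 of 6 under quantile normalization) and 2 at an unadjusted p under 0.05. P4hb (ENSMUSG00000025130, chromosome 11 from 120560298 to 120573253, - strand), protein disulfide isomerase itself, was at 10.36, 10.87, 10.72 and 10.88 log2 CPM across PAHSA replicates 1 to 4, against 11.07, 11.13, 10.96 and 10.98 across vehicle replicates 1, 3, 4 and 5. PAHSA replicate 1 stood far below the others, and even the highest PAHSA library, replicate 4, was below the lowest vehicle library, replicate 4. The difference was -0.33 (SE 0.12), a ratio of 0.797, with an interval from -0.58 to -0.07 (limma unadjusted p = 0.0170, adjusted p = 0.671). It was -0.21 without PAHSA replicate 1, -0.10 when libraries were quantile normalized and -0.14 with the stellate covariate. Per kilobase of transcript P4hb had the highest level of the 40 genes, at 931 CPM per kilobase in PAHSA and 1158 in vehicle libraries, followed in vehicle libraries by Hspa5 at 900 CPM per kilobase in PAHSA and 920 in vehicle libraries and Pdia3 at 651 CPM per kilobase in PAHSA and 732 in vehicle libraries.

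Pdia4 (ENSMUSG00000025823, chromosome 6 from 47796141 to 47813430, - strand), an isomerase with several thioredoxin-like domains, was at 8.97, 9.40, 9.13 and 9.47 log2 CPM in the PAHSA libraries, against 9.42, 9.58, 9.53 and 9.49 in the vehicle libraries. PAHSA replicates 1, 2 and 3 lay below the vehicle libraries and PAHSA replicate 4 within them; the difference was -0.26 (SE 0.11) (limma unadjusted p = 0.0405, adjusted p = 0.671), -0.17 without PAHSA replicate 1, -0.08 when libraries were quantile normalized and -0.12 with the stellate covariate. Pdia6, which also attenuates IRE1 signalling, differed by -0.23 (SE 0.12). Pdia3 (ERp57), the isomerase that works with calreticulin and calnexin, differed by -0.17 (SE 0.09), which turned positive when libraries were quantile normalized (0.04). Pdia5 differed by -0.04 (SE 0.17) and its ranges were 5.85 to 6.56 log2 CPM in PAHSA libraries and 6.02 to 6.46 in vehicle libraries. Creld2, an ER stress-induced protein with isomerase activity, was at 7.39, 7.68, 7.57 and 8.27 log2 CPM in the PAHSA libraries, against 7.96, 8.06, 8.22 and 7.88 in the vehicle libraries. PAHSA replicates 1, 2 and 3 were below every vehicle library and PAHSA replicate 4 above every one, so the difference of -0.30 (SE 0.17) hides opposite positions; it was -0.48 without PAHSA replicate 4, -0.19 without PAHSA replicate 1, -0.54 with the acinar covariate and -0.06 with the stellate covariate.

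**Figure D3:**
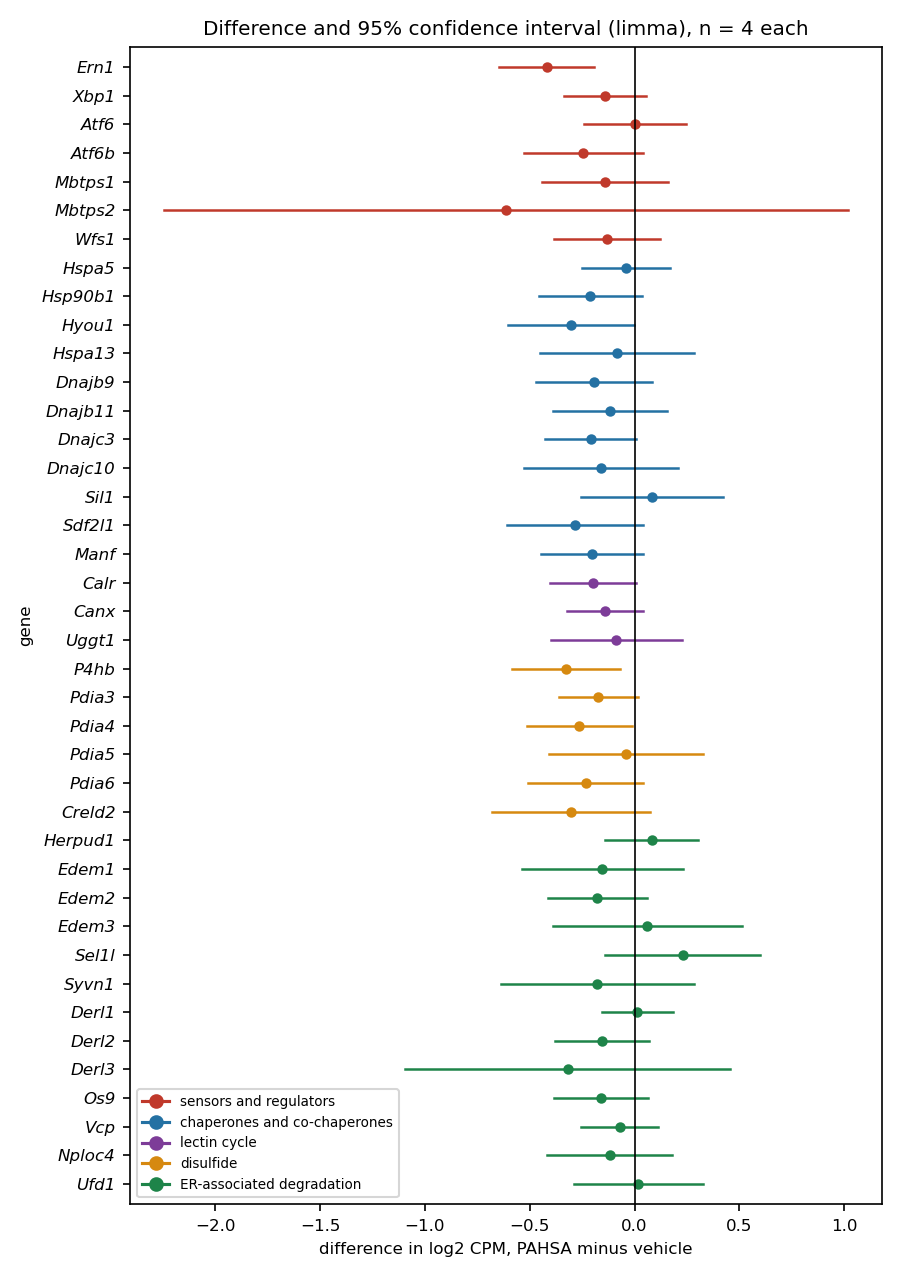
Difference in log2 CPM, PAHSA minus vehicle (x axis), of the 40 genes (y axis) with limma's 95% confidence interval, coloured by role; n = 4 libraries each. The intervals of Ern1, P4hb, Pdia4 and Hyou1 lie below 0, and all others span it.

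Components of ER-associated degradation were mixed, with 8 negative and 5 positive differences of 13, a median of -0.12 and 0 at an unadjusted p under 0.05. Herpud1, a small ER membrane protein that organises the degradation complex and is among the most stress-responsive genes, was at 8.68, 8.68, 8.56 and 8.95 log2 CPM in the PAHSA libraries, against 8.72, 8.70, 8.64 and 8.49 in the vehicle libraries. PAHSA replicate 4 was the highest of the 8 libraries and PAHSA replicates 1, 2 and 3 lay within the vehicle range; the difference was 0.08 (SE 0.10), ranging from -0.06 to 0.25 over the 18 alternatives, and negative only with the acinar marker mean as a covariate. Edem1, a lectin that extracts misfolded glycoproteins from the folding cycle, was at 7.45, 8.23, 7.67 and 7.64 log2 CPM in the PAHSA libraries, against 7.98, 8.12, 7.55 and 7.97 in the vehicle libraries. Both groups spread widely, with PAHSA replicate 2 the highest library of all, and the difference was -0.15 (SE 0.17), ranging from -0.31 to 0.02 over the 18 alternatives. Its relatives Edem2 and Edem3 differed by -0.18 (SE 0.11) and 0.06 (SE 0.20).

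The ubiquitin ligase Syvn1 (HRD1), the centre of the degradation complex, was at 6.24, 6.33, 6.44 and 6.22 log2 CPM in the PAHSA libraries, against 6.46, 6.92, 5.82 and 6.73 in the vehicle libraries. The PAHSA libraries lay close together inside a wide vehicle range whose lowest library was replicate 4; the difference was -0.18 (SE 0.21), -0.40 without that library, -0.03 without vehicle replicate 3 and -0.10 without vehicle replicate 5. Sel1l, the scaffold partner of HRD1, had the largest positive difference of the 40, 0.23 (SE 0.17), at 7.48 to 8.07 log2 CPM in PAHSA libraries and 7.30 to 7.84 in vehicle libraries; it was 0.13 without PAHSA replicate 3, 0.15 without vehicle replicate 4, 0.06 with the acinar covariate and 0.44 with the stellate covariate. Syvn1 and its partner Sel1l thus had differences of opposite sign, but neither passed and both intervals span 0. No contrast between them is read from these values.

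Of the derlins, membrane proteins of the exit channel, Derl1 differed by 0.01 (SE 0.08), Derl2 by -0.16 (SE 0.10) and Derl3 by -0.32 (SE 0.35). Derl1 varied little between libraries, at 8.31 to 8.43 log2 CPM in PAHSA libraries and 8.31 to 8.40 in vehicle libraries, and its sign turned in 4 of 18 alternatives. Derl3, which is abundant in secretory cells, was weakly expressed here and was low in PAHSA replicates 1 and 3, at 2.38 to 3.66 log2 CPM in PAHSA libraries and 3.05 to 3.73 in vehicle libraries. Os9, a lectin that delivers glycoproteins to HRD1, differed by -0.16 (SE 0.10). The cytosolic ATPase Vcp (p97), which pulls substrates out of the membrane, and its cofactors Nploc4 and Ufd1 differed by -0.07 (SE 0.08), -0.12 (SE 0.13) and 0.02 (SE 0.14).

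The pattern across libraries was uneven within the PAHSA group. PAHSA replicates 1 to 4 lay below all vehicle libraries for 27, 14, 19 and 9 of the 40 genes. They lay above all vehicle libraries for 2, 4, 3 and 5 genes. The same counts were not made over all genes, so none of them is read as a departure from the background. Median deviations of the 40 genes from the vehicle mean were -0.29, -0.07, -0.12 and -0.04 log2 in PAHSA replicates 1 to 4, against -0.005, 0.05, 0.002 and -0.02 log2 in vehicle replicates 1, 3, 4 and 5, from whose own mean the deviations are taken. The same medians over all genes tested lay between 0.018 and 0.026 log2 in the 4 PAHSA libraries. Those medians cover genes of every level. Whether other genes as abundant as these 40 were also low in PAHSA replicate 1 was not tested. Disulfide enzymes reached -0.53 log2 in PAHSA replicate 1 and -0.36 log2 in PAHSA replicate 3, and were at -0.09 and -0.04 log2 in PAHSA replicates 2 and 4. Without PAHSA replicate 1 the median difference of the 40 genes was -0.11, and 33 differences were negative.

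**Figure D4:**
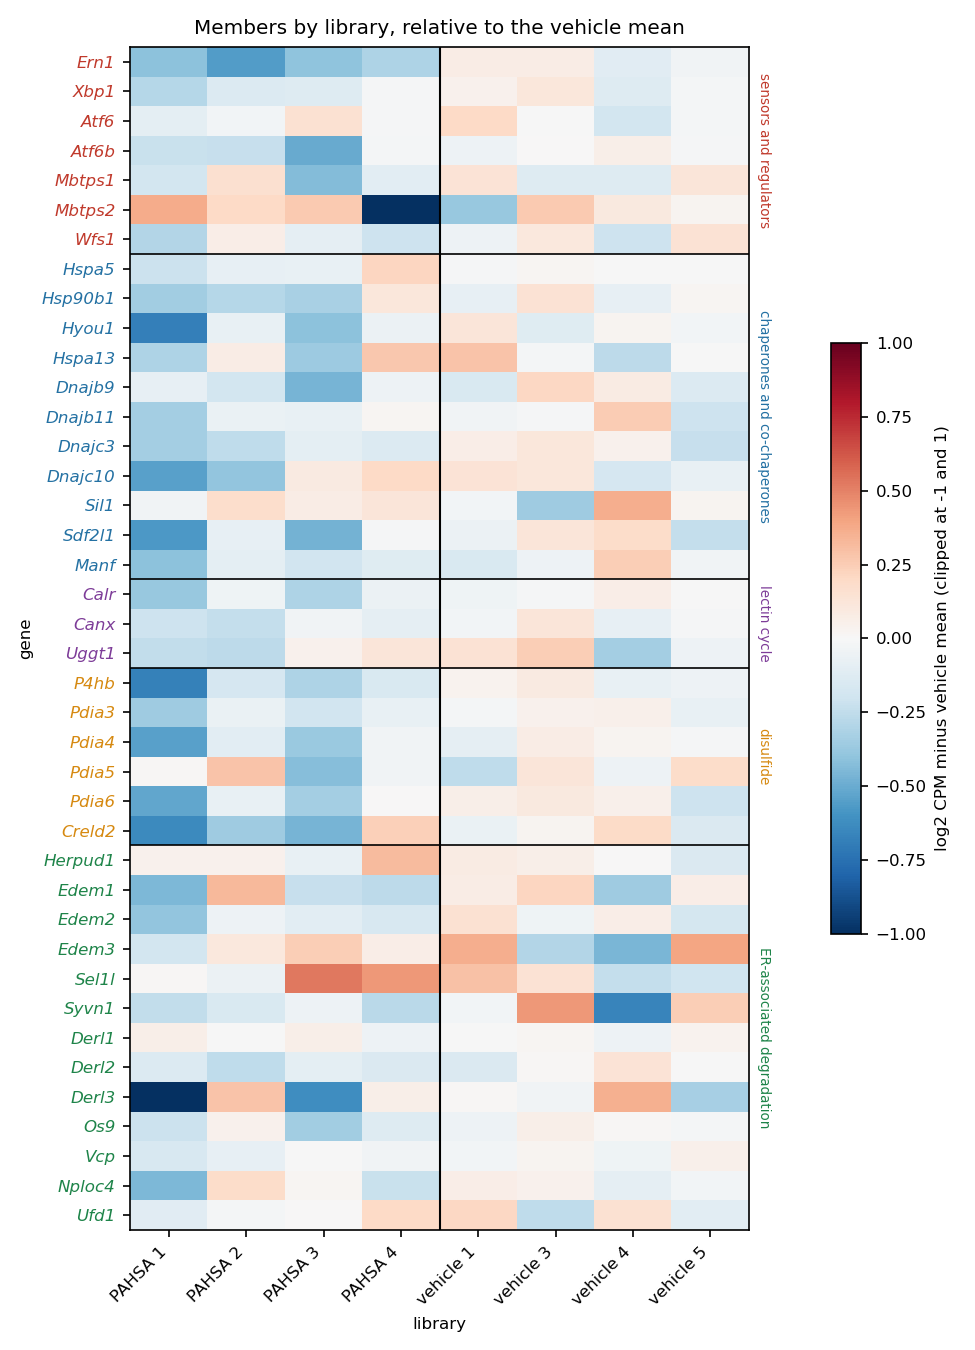
Log2 CPM of the 40 genes (rows, grouped by role) in each library (columns) minus the vehicle mean of the gene, clipped at -1 and 1; blue is below and red above that mean. PAHSA replicate 1 is below all vehicle libraries for 27 genes and PAHSA replicate 4 for 9, with no count over all genes beside them. The row of Ern1 is blue in all 4 PAHSA libraries.

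Summed over the 40 genes, 15545, 18496, 17373 and 20004 CPM were found in PAHSA replicates 1 to 4, against 20009, 20706, 19729 and 19304 CPM in vehicle replicates 1, 3, 4 and 5. PAHSA replicate 4 lay within the vehicle range and the other 3 below it. Means were 17855 ± 1879 CPM in PAHSA and 19937 ± 589 CPM in vehicle libraries (SD, n = 4 each). These sums are a description and are carried mostly by Hspa5, P4hb, Pdia3, Calr, Hsp90b1 and Pdia6. Hspa5 alone had 2491 to 3349 CPM in PAHSA and 2872 to 2928 CPM in vehicle libraries.

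**Figure D5:**
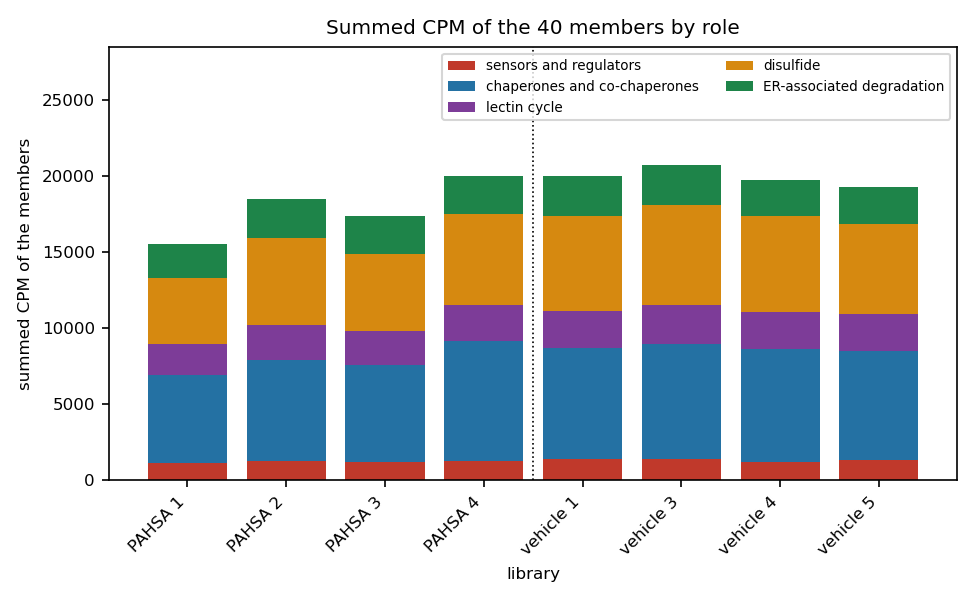
Summed CPM (y axis, from 0) of the 40 genes in each library (x axis), stacked by role. PAHSA replicate 1 is lowest at 15545 CPM, and PAHSA replicate 4, at 20004 CPM, stands among the vehicle libraries at 19304 to 20706 CPM.

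Further genes linked to the same pathway, 72 in all, were counted in the same way. The list holds folding, redox, glycan-trimming and degradation factors. It also holds transcription factors such as Creb3l2, signalling genes such as Traf2 and Map3k5, and others such as Rtcb, Bloc1s1 and Hgsnat. Of 67 that were tested, 40 had a negative and 27 a positive difference, at a median of -0.08, with 0 past the adjusted threshold, 4 lower and 2 higher at an unadjusted p under 0.05. Among all genes tested these shares were 50.9% negative, 4.29% lower and 3.02% higher, so the counts of the 67 genes are near the background. Creb3l2, a membrane-bound transcription factor related to ATF6, was at 6.35, 6.81, 6.502 and 6.73 log2 CPM in the PAHSA libraries, against 7.06, 6.84, 7.10 and 7.11 in the vehicle libraries. The groups did not overlap, and the difference was -0.43 (SE 0.13) (limma unadjusted p = 0.00724, adjusted p = 0.671). Ubxn4, which recruits p97 to the ER membrane, was at 7.19, 7.14, 7.31 and 7.41 log2 CPM in the PAHSA libraries, against 6.91, 7.001, 6.83 and 6.89 in the vehicle libraries. Here every PAHSA library was above every vehicle library, and the difference was 0.35 (SE 0.10) (limma unadjusted p = 0.00517, adjusted p = 0.671). The others at an unadjusted p under 0.05 are named after their values were seen: the thiol oxidase gene Ero1l differed by -0.42 (SE 0.15), the prolyl isomerase gene Fkbp11 by -0.47 (SE 0.18), the J protein gene Dnajc18 by 0.51 (SE 0.21) and Pdia2, a pancreatic disulfide isomerase, by -2.19 (SE 0.94), with 0.84 log2 CPM in PAHSA replicate 4. Of the other 5, Nfya was below the level tested, and Ern2, Creb3l3, Creb3l4 and Clgn were not analysed here.

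Most tested markers of acinar, duct and stellate cells in the preparation were lower in PAHSA, but none passed the adjusted threshold. The islet identity of the RNA was plain, since Ins2 averaged 16.53 ± 0.15 log2 CPM in PAHSA libraries and 16.35 ± 0.19 in vehicle libraries (SD, n = 4 each). Beta cell markers had 3 negative differences of 13. At an unadjusted p under 0.05, 1 was lower and 3 were higher, beside 4.29% lower and 3.02% higher of all genes. Their sum was 142870 to 177036 CPM in PAHSA and 138411 to 181283 CPM in vehicle libraries. All 32 tested acinar markers of 36 listed were lower in PAHSA, 21 at an unadjusted p under 0.05, and their sum was 618 to 22244 CPM in PAHSA and 14743 to 58636 CPM in vehicle libraries; Prss1, Prss3, Cuzd1, Klk1 and Ptf1a stood at the lowest value of the table in at least 1 library. The acinar sum was lowest in PAHSA replicate 4 and, of the vehicle libraries, highest in replicate 4; with the acinar mean as a covariate 35 of the 40 differences were negative at a median of -0.18. Stellate, fibroblast and pericyte markers were lower for 9 of 10 tested of 13 listed, with sums of 43.0 to 150 CPM in PAHSA and 85.9 to 322 CPM in vehicle libraries, and with their mean as a covariate 27 differences were negative at a median of -0.05. Duct markers summed to 3472 to 4435 CPM in PAHSA and 4244 to 6179 CPM in vehicle libraries, and B and plasma cell markers, 3 of 11 listed being in the table, to 14.9 to 24.7 CPM in PAHSA and 24.8 to 43.2 CPM in vehicle libraries. What part any of these cell types has in the differences of the ER genes was not tested.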

How the data were processed

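Total RNA of islets was sequenced from Nextera XT libraries, a kit that does not mark strand, per the labels' protocols. The authors deposited log2 CPM, and kallisto and limma are named, without versions, in the submitters' processing notes; no source used here names a build or annotation. Reads of overlapping transcripts are divided by a model in kallisto, and exons of 7 of the 40 genes overlap an exon on the other strand. From the lowest value of each column, taken as 0.5 added counts, depth was estimated at 35356278 to 39359123 counts in PAHSA and 34461742 to 45236238 in vehicle libraries; 49.7% to 51.5% of the recovered counts in PAHSA and 47.8% to 50.7% in vehicle libraries were whole to within 0.01, and they served only to describe depth. Each interval is for the difference of group means. It rests on the spread between libraries, moderated by limma over all genes.

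Symbols and positions came from GENCODE M21 (GRCm38), by identifier, and 56 of 13725 identifiers had no symbol. Genes with a mean log2 CPM above 0 were tested (12231; 1494 were left out). limma 3.58.1 in R 4.3.3 (lmFit, eBayes with trend, two-sided) was fitted to all 8 libraries with group as the only term, with Benjamini-Hochberg adjustment over all genes and a threshold of 0.05, and was tested on simulated data. Levels per kilobase used the median length of a gene's annotated coding transcripts. The 40 genes and all lists were chosen with earlier results of these data known. Values in every library are given for those of the 40 genes at an unadjusted p under 0.05 or whose groups do not overlap, for a fixed set of sensors and well-known targets, and for related genes at an unadjusted p under 0.01. Other cell types were followed through fixed marker lists. Retrieval signals of the proteins were not read. Alternatives were each library left out, 3 other filters or added values, 2 other scalings, eBayes without trend, a replicate block, 2 marker covariates, and both libraries numbered 4 left out.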

Additional observations from a re-analysis of the deposited data

Results flagged for a closer look

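In 3 of 80 groups of 4 libraries, 1 library stood apart from the other 3 by Dixon's test, which flags about 1 in 20 groups by chance. Mbtps2 was at -0.31 log2 CPM in PAHSA replicate 4, against 3.17 to 3.34 log2 CPM in the other PAHSA libraries. Hsp90b1 was at 10.72 log2 CPM in PAHSA replicate 4, against 10.26 to 10.33 log2 CPM in the other PAHSA libraries. Pdia6 was at 9.84 log2 CPM in vehicle replicate 5, against 10.10 to 10.15 log2 CPM in the other vehicle libraries. PAHSA replicate 4 was also the library with the lowest acinar marker sum, 618 CPM; its part in these values was not tested.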

How the results depend on the processing

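In each of 18 alternatives 0 genes passed an adjusted p of 0.05, among all genes, among the 40 ER genes and among the 67 related genes. Of the 40 genes, 21 kept the sign of their difference in all 18, and 41 of 720 differences changed sign. Leaving out 1 library at a time gave 32 to 36 negative differences, a median of -0.20 to -0.11, 2 to 11 genes lower at an unadjusted p under 0.05 (2 without PAHSA replicate 1, 8 without PAHSA replicate 2, 11 without PAHSA replicate 4) and 0 higher, beside 365 to 611 lower of all genes in the same fits (611 without PAHSA replicate 4); for the related genes the median ran from -0.077 to -0.0225 (-0.0225 without PAHSA replicate 1, -0.038 without vehicle replicate 4), with 2 to 5 lower and 1 to 3 higher. Single differences that changed sign there ranged from -0.12 to 0.017 for Hspa5, -0.0044 to 0.036 for Derl1, -0.056 to 0.0704 for Atf6, -0.20 to 0.0115 for Hspa13, -0.15 to 0.087 for Pdia5, -0.092 to 0.19 for Edem3, -0.94 to 0.28 for Mbtps2, -0.066 to 0.088 for Ufd1 and -0.035 to 0.20 for Sil1.

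Under quantile normalization 1 of the 40 was lower at an unadjusted p under 0.05, and the differences of Hspa5 (0.21), Hsp90b1 (0.094), Calr (0.083), Canx (0.049) and Pdia3 (0.045) were positive; the cause was not tested. Over all genes, about as many were lower as higher at that level in this fit. In the main fit more were lower than higher. With the stellate covariate 1 gene was lower and 1 higher at that level, the median was -0.054 (-0.017 for the related genes), and Hspa5 (0.071), Hspa13 (0.24), Dnajc10 (0.051), Uggt1 (0.10), Pdia6 (0.0086), Edem1 (0.022), Derl3 (0.078) and Derl1 (-0.023) changed sign. With the acinar covariate 8 were lower, the related genes had a median of -0.0501 and 0 higher, and Atf6 (-0.012), Mbtps2 (0.76), Herpud1 (-0.058) and Ufd1 (-0.0501) changed sign. Without both libraries numbered 4, 8 of the 40 and 7 of the related genes were lower and 1 related gene higher, with Atf6 at -0.0504, Mbtps2 at 0.31 and Edem3 at -0.10. In eBayes without trend 1 of the 40 and 2 of the related genes were lower, and after centring on library medians Atf6 was at -0.0089. The counts of lower and higher genes in these fits have no share of all genes beside them. Neither an excess nor a shortfall is read from them.

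Replicate numbers 1, 3 and 4 occur in both groups. Deviations of same-numbered libraries from their group means correlated at -0.02 in each of the 3 pairs. Pairs with unlike numbers ranged from -0.05 to 0.05. No pairing by number was seen over all genes, and a pairing that touches few genes would not show in these correlations. Number 2 occurs only in PAHSA and number 5 only in vehicle, so these libraries do not enter the group difference of the replicate block. With the replicate block 6 of the 40 genes and 3 of the related genes were lower at an unadjusted p under 0.05, and 1 related gene was higher. No count over all genes is set beside these, so no excess is read from them. In that fit the median was -0.20, Ufd1 was at -0.0042 and 0 genes passed. Depth limits only Mbtps2, with 32 estimated counts in PAHSA replicate 4.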
